A study of Sus scrofa with 30 samples.

Results

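The primitive streak and early mesoderm genes examined here were taken from a list of 10 symbols, namely T (also called TBXT), EOMES, MIXL1, GSC, MESP1, SNAI1, SNAI2, KDR, TBX3 and VIM, which were matched to NCBI gene identifiers. Of these, 5 (T, EOMES, SNAI1, TBX3 and VIM) were present among the 13103 genes of the table of all embryos, MIXL1 had values for the Day 10 embryos alone, and GSC, MESP1, SNAI2 and KDR were not analysed here. The data were read counts from single whole pig embryos, each with embryonic disc and trophectoderm, of German Landrace × Pietrain gilts inseminated with sperm of a single Pietrain boar. Days 8, 10 and 12 after insemination were each represented by 5 females and 5 males. All gilts had been cycle-synchronized with altrenogest and given the gonadotropins PMSG and hCG before insemination. The groups carried no further treatment and no genetic modification. The embryos were flushed from 4 gilts slaughtered per day, but which gilt carried which embryo is not stated, so that littermates were treated as independent. All p-values take these embryos and not the gilts as the unit, and they may therefore be too small. The questions were in which embryos, above all of Day 12, genes of gastrulation were detected and whether these genes varied together.

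Gastrulation starts when epiblast cells of the embryonic disc move through the primitive streak and leave the epithelium to form mesoderm and endoderm. The T-box factors T (brachyury) and EOMES and the homeodomain factor MIXL1 are switched on in the streak under NODAL, BMP and WNT signals, and SNAI1 represses E-cadherin while the cells leave the epithelium. In the pig these events coincide with the change of the spherical blastocyst into a long filament, in which the disc becomes a very small share of the tissue beside trophectoderm and extraembryonic endoderm and mesoderm.

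Total counts per embryo lay between 14882265 and 33799980 on Day 8, between 19773328 and 32476637 on Day 10 and between 6068212 and 34002508 on Day 12. The smallest library belonged to the Day 12 female d12_f_245 (embryos are named by day, sex and number), which also held the highest level of SNAI1 and VIM of its day. Results that rest on it are given with and without it where both were computed. Levels are CPM, counts scaled to library size, after TMM correction for library composition, and were not divided by transcript length, so levels of different genes were not compared. The detection floor was set at 3 counts in a library, equal to 0.0823 to 0.194 CPM for Day 8, 0.108 to 0.170 CPM for Day 10 and 0.0872 to 0.434 CPM for Day 12. Since RNA came from whole embryos, fewer cells of a type and less RNA per cell cannot be told apart.

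T rose above the floor on Day 10, and T and EOMES were both at or near the floor on Day 12. On Day 10 the level of T differed widely between embryos, and MIXL1 differed with it. SNAI1 and TBX3 were highest on Day 8, whereas VIM was highest on Day 12 and most variable there. The plot of the level in each embryo shows these courses for 6 genes.

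**Figure D1:**
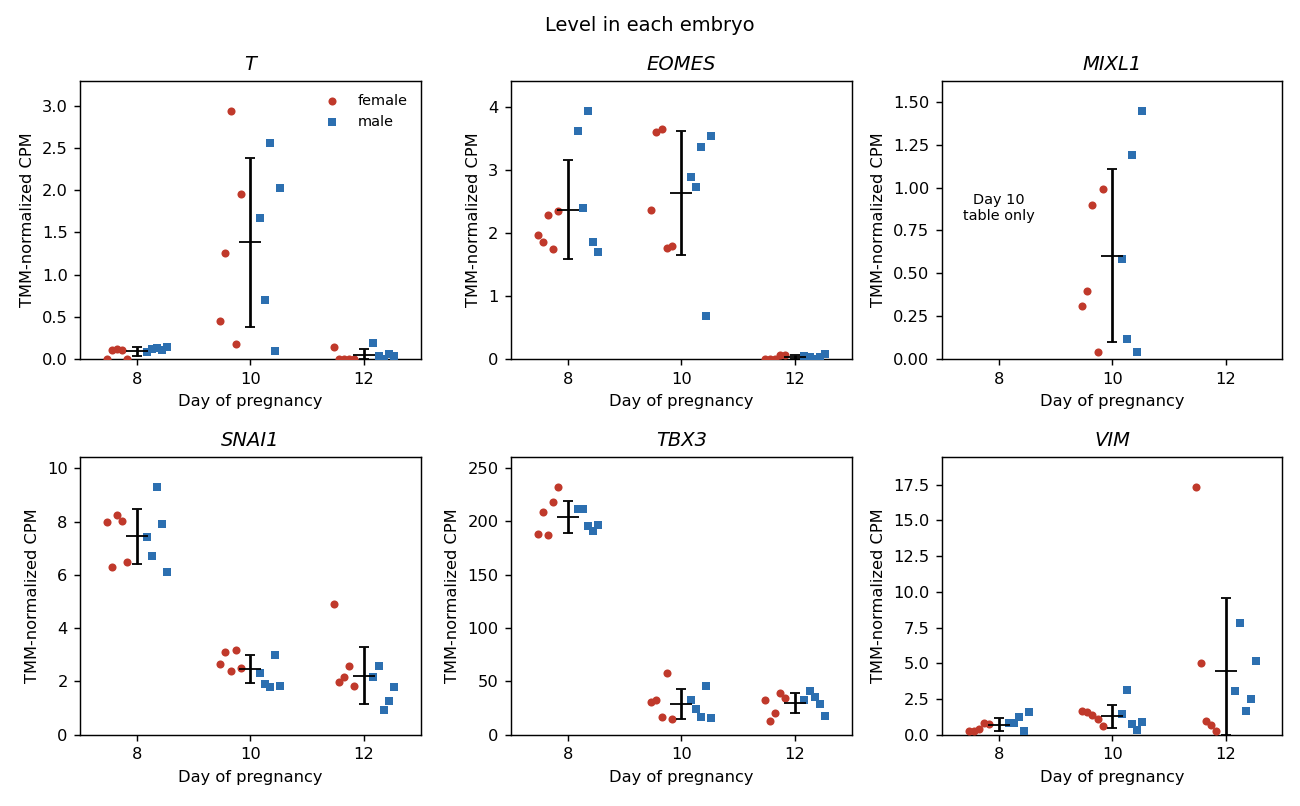
TMM-normalized CPM of T, EOMES, MIXL1, SNAI1, TBX3 and VIM (vertical axes, linear, each gene with its own scale) in each female (circle) and male (square) embryo by day of pregnancy, with the mean and SD of the 10 embryos of a day in black, the lower bar cut at 0. T reached 2.94 CPM on Day 10 only, EOMES was at most 0.0774 CPM on Day 12, TBX3 was at 187 CPM or more on Day 8 alone, and VIM reached 17.4 CPM in a single embryo of Day 12.

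T (gene 397450, chromosome 1, 2717165 to 2725561, Sscrofa11.1), the founding T-box factor that is needed for mesoderm to form and migrate, had 0 to 4 counts in the Day 8 embryos, and 8 of the 10 were at or under the floor. On Day 10 it ran from 0.0913 to 2.94 CPM with a median of 1.46 CPM, from 2 counts in d10_m_435 and 4 counts in d10_f_433 to 66 counts in d10_f_336 and 69 counts in d10_m_333. On Day 12 it had 0 to 4 counts, 9 of 10 embryos were at or under the floor and 5 were at 0. The high embryos were thus all of Day 10, but Day 10 overlapped with both other days through d10_m_435 and d10_f_433. The mean was 0.0915 ± 0.0514 CPM on Day 8, 1.38 ± 1.0 CPM on Day 10 and 0.0472 ± 0.0677 CPM on Day 12 (SD, n = 10 each). T reached 0.5 CPM in 7 embryos of Day 10 and in 0 of Days 8 and 12, so it passed the filter on low values through Day 10 alone and had to differ between Day 10 and the other days. Its fitted log2 fold changes, 3.81 for Day 10 against Day 8 (SE 0.56) and -4.89 for Day 12 against Day 10 (SE 0.64), are therefore given as a description without a test. Summed over embryos, 316 counts on Day 10 stood against 9 on Day 12, a ratio of 35.4 at equal depth (95% exact counting interval 18.4 to 78.1, which covers counting error only). The difference between Days 12 and 8 did not pass the test (log2 fold change -1.08, adjusted p = 0.185, edgeR quasi-likelihood test).

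EOMES (gene 100622125, chromosome 13, 14209590 to 14216184), a T-box factor of the streak, definitive endoderm and, in the mouse, trophoblast stem cells, was already present on Day 8 in every embryo. Its range was 1.71 to 3.95 CPM with a median of 2.13 CPM on Day 8 and 0.684 to 3.65 CPM with a median of 2.81 CPM on Day 10. On Day 12 all 10 embryos were at or under the floor with 0 to 2 counts, and 4 were at 0. Days 8 and 10 covered the same range apart from the low d10_m_435, and no Day 12 embryo came near them. The means were 2.38 ± 0.786, 2.64 ± 0.984 and 0.0316 ± 0.0300 CPM (SD, n = 10 each). Days 10 and 8 were not distinguished (log2 fold change 0.15, SE 0.26, adjusted p = 0.630). EOMES was lower on Day 12 than on Day 10 (adjusted p = 1.56e-14) and than on Day 8 (adjusted p = 1.72e-14, edgeR), without overlap. The summed counts gave a ratio of 74.3 for Day 10 over Day 12 (95% exact counting interval 37.5 to 173) and of 66.9 for Day 8 over Day 12 (33.7 to 156).

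MIXL1 (gene 100738244, chromosome 10, 14102273 to 14105544), a homeodomain factor that patterns streak mesoderm and endoderm, was among 10 genes that were listed for Day 10 and not in the table of all embryos. It ran from 0.0414 to 1.45 CPM with a median of 0.491 CPM (mean 0.602 ± 0.504, SD, n = 10). The highest embryos were d10_m_453 with 43 counts and d10_m_333 with 35, and d10_f_433 and d10_m_435 had 1 count each. With d10_m_321 at 3 counts, 3 embryos were at or under the floor. FGF17, a fibroblast growth factor of the streak, was listed for Day 10 in the same way and ran from 0.168 to 1.13 CPM (mean 0.678 ± 0.286).

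SNAI1 (gene 396583, chromosome 17, 51546446 to 51552498), the zinc finger repressor of E-cadherin, ran from 6.09 to 9.31 CPM with a median of 7.66 CPM on Day 8. Its range was 1.78 to 3.18 CPM with a median of 2.46 CPM on Day 10 and 0.943 to 4.92 CPM with a median of 2.07 CPM on Day 12. All Day 8 embryos lay above all later ones, while the later days overlapped, with d12_f_245 above all embryos of Day 10. The means were 7.45 ± 1.03, 2.47 ± 0.524 and 2.22 ± 1.08 CPM (SD, n = 10 each), and 1.92 ± 0.544 CPM on Day 12 without d12_f_245. Compared with Day 8, SNAI1 was 3.01-fold lower on Day 10 (a log2 fold change of -1.59, SE 0.19, adjusted p = 3.66e-08) and 3.43-fold lower on Day 12 (adjusted p = 1.56e-09). Between Days 12 and 10 the log2 fold change was -0.19 (SE 0.19, adjusted p = 0.416). SNAI1 was therefore highest on Day 8, when T was at or near the floor.

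TBX3 (gene 100152741, chromosome 14, 37582704 to 37596767), a T-box repressor with roles in pluripotent cells, extraembryonic endoderm, heart and limb, ran from 187 to 233 CPM on Day 8 with a median of 203 CPM. Its range was 14.8 to 58.1 CPM with a median of 27.4 CPM on Day 10 and 12.6 to 41.0 CPM with a median of 33.0 CPM on Day 12. Day 8 stood apart from both later days, which covered each other. The means were 204 ± 14.8, 28.9 ± 14.4 and 29.5 ± 9.47 CPM (SD, n = 10 each). Compared with Day 8, TBX3 was 7.07-fold lower on Day 10 (a log2 fold change of -2.82, SE 0.23, adjusted p = 1.54e-11) and 6.92-fold lower on Day 12 (adjusted p = 3.28e-12). The log2 fold change between Days 12 and 10 was 0.03 (SE 0.22, adjusted p = 0.915). The spread of TBX3 among embryos widened from an SD of 0.10 on the log2 scale on Day 8 to 0.69 on Day 10.

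VIM (gene 100522394, chromosome 10, 43516441 to 43526172), the intermediate filament protein of mesenchymal cells, had a range of 0.235 to 1.60 CPM with a median of 0.776 CPM on Day 8 and 0.319 to 3.13 CPM with a median of 1.24 CPM on Day 10. On Day 12 the lowest level was 0.294 CPM in d12_f_299, the median 2.76 CPM and the highest 17.4 CPM in d12_f_245. The days overlapped throughout, and on Day 12 females d12_f_289, d12_f_297 and d12_f_299 were within the range of Day 8, whereas d12_f_245, d12_f_271, d12_m_275 and d12_m_307 were above every earlier embryo. The means were 0.712 ± 0.448, 1.29 ± 0.786 and 4.45 ± 5.12 CPM (SD, n = 10 each), and 3.02 ± 2.53 CPM on Day 12 without d12_f_245. Compared with Day 8, VIM was higher on Day 12 by 2.60 on the log2 scale (SE 0.53, adjusted p = 7.11e-05) and by 2.08 without d12_f_245. Between Days 12 and 10 the log2 fold change was 1.75 (SE 0.51, adjusted p = 0.00412), which did not pass the FDR limit of 0.001 in edgeR but did in DESeq2 (adjusted p = 0.000793), and it was 1.22 without d12_f_245. Between Days 10 and 8 it was 0.85 (SE 0.52, adjusted p = 0.167). Of 11987 genes with a mean of at least 1 CPM on Day 12, 1.23% had a larger SD among embryos than VIM (1.66 on the log2 scale). This rank includes d12_f_245 and was not computed without it.

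With limits of 0.001 on the FDR and 1 on the absolute log2 fold change, SNAI1 and TBX3 fell between Days 8 and 10, where 14.1% of all 13103 genes were called, 9.88% higher and 4.20% lower. EOMES was lower on Day 12 than on Day 10, where 23.3% of genes were called, 14.9% higher and 8.39% lower. Between Days 8 and 12 VIM rose and EOMES, SNAI1 and TBX3 fell, against 32.5% of genes called, 22.0% higher and 10.4% lower. Groups did not overlap for SNAI1 and TBX3 between Days 8 and 10 (22.0% of all genes), for EOMES between Days 10 and 12 (16.6%) and for EOMES, SNAI1 and TBX3 between Days 8 and 12 (31.7%). T is left out of these counts, since the filter fixed its difference. The 3 comparisons share embryos, and with so few genes the counts describe the genes one by one.

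**Figure D2:**
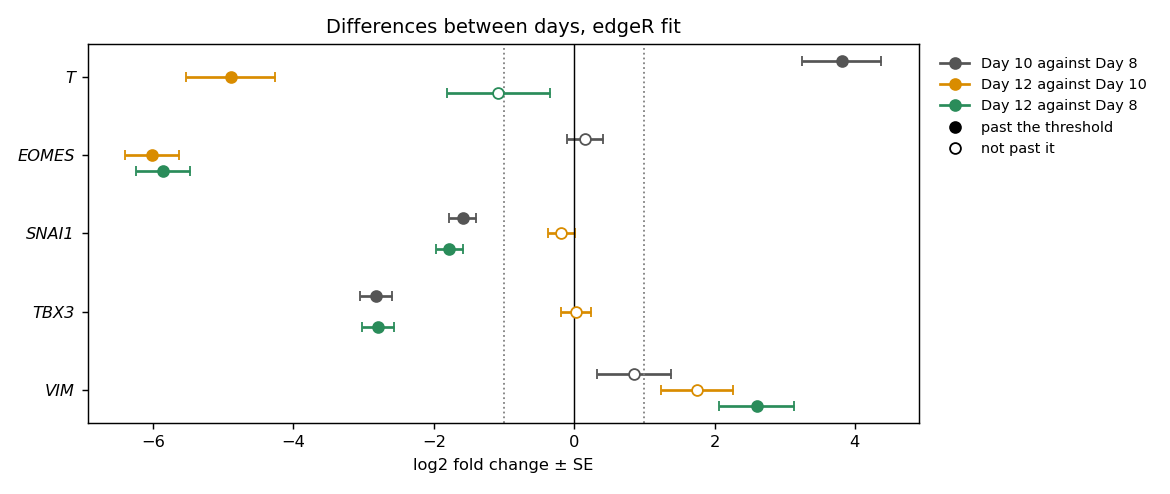
Log2 fold change (horizontal axis) with its SE for T, EOMES, SNAI1, TBX3 and VIM in the 3 comparisons between days, filled where the FDR was under 0.001 and the log2 fold change beyond 1 (dotted lines). T is at 3.81 and then -4.89, a difference that the filter on low values fixed, SNAI1 and TBX3 lie left of -1 in both comparisons with Day 8, and the positions of EOMES on Day 12 depend on the prior count, since its Day 12 embryos were at or under the floor.

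The 10 embryos of Day 12 were then taken one by one. T was at 0 in 5 of them, at 1 count in d12_f_245, d12_m_275 and d12_m_307, at 2 counts in d12_m_286 and at 4 counts in d12_m_249, where it corresponded to 0.190 CPM. EOMES was at 0 in d12_f_245, d12_f_271, d12_f_289 and d12_m_276, at 1 count in 4 embryos and at 2 counts in d12_f_297 and d12_m_307. Both genes together had 0 to 5 counts per embryo. No Day 12 embryo had T or EOMES above the highest embryo of the earlier days, EOMES was below every Day 10 embryo in all 10, and T was below every Day 10 embryo in all except d12_f_245 and d12_m_249. Streak factors were therefore not detectable beyond the floor in these Day 12 embryos at this depth, apart from the 4 counts of T in d12_m_249, and no Day 12 embryo stood out by both genes.

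Several genes of the embryonic disc, though not all, were lower in the same Day 12 embryos than on Day 10. NODAL, the ligand that sets up the streak, was at 0 counts in all 10 and thus at least 8.12-fold lower than on Day 10, computed against the mean floor of 3 counts per library. WNT3A, a WNT ligand of the streak, was lower than on Day 10 (4.65 ± 1.67 against 0.125 ± 0.138 CPM, SD, n = 10 each, adjusted p = 3.63e-14). The pluripotency factor SOX2 had 2 counts in all of Day 12 against 97 on Day 10, and NANOG 11 against 492. OTX2, a homeodomain factor of the anterior epiblast, had 5 against 267, and POU5F1 went from 14.4 ± 3.10 to 1.72 ± 1.04 CPM (log2 fold change -3.14, adjusted p = 6.67e-13). In contrast, DNMT3B, a DNA methyltransferase of the epiblast, rose from 341 ± 27.9 to 751 ± 194 CPM (log2 fold change 1.14, adjusted p = 1.29e-09), and DPPA5 was at 187 ± 225 and 511 ± 303 CPM (adjusted p = 0.00459, not called). The summed CPM of the 11 epiblast markers with values, of 13 listed, had a median of 1308 on Day 10 and 1475 on Day 12. Genes with high CPM weigh most in this sum. Its largest mean was that of TDGF1 on Day 10 (685 CPM) and of DNMT3B on Day 12 (751 CPM), against 2.24 and 0.0480 CPM for NANOG. The sum therefore does not show the course of the markers with low CPM. How far the lower level of T and EOMES follows the share of disc in the RNA was not tested.

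Of 16 other genes of streak and nascent mesoderm, 6 were in the table. From Day 10 to Day 12, 3 were called lower (NODAL, WNT3A and LHX1), 0 higher and 3 did not pass (median log2 fold change -1.93, against 0.04 over all genes, of which 1951 were called higher and 1099 lower). Among those that did not pass was LEF1, the nuclear partner of beta-catenin, which was at 0.284 ± 0.175 CPM on Day 10 and 1.17 ± 0.644 CPM on Day 12 (adjusted p = 0.00253). TBX6, a T-box factor of paraxial mesoderm, was at 1.58 ± 0.565 and 2.04 ± 1.09 CPM (adjusted p = 0.264), with its highest Day 12 level, 4.49 CPM, in d12_f_245. Epiblast markers were lower in 6 of 11, higher in 1 (DNMT3B) and without a call in 4 (median -1.30). From Day 8 to Day 10, 2 of the 6 streak genes were lower, 0 higher and 4 did not pass (median -0.32).

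Some genes of other mesoderm and of mesenchymal change were higher on Day 12 than on Day 10, a call made for 14.9% of all genes. Of 19 genes listed for extraembryonic and lateral mesoderm, only 9 had values, so the counts leave out the rest of the list. Of these 9 genes, 5 were higher, 0 lower and 4 did not pass (median 1.72), among the latter HAND2 and GATA6 with a log2 fold change of -0.32 each. HAND1, a bHLH factor of trophoblast and extraembryonic mesoderm, went from 77.1 ± 52.6 to 1065 ± 381 CPM (log2 fold change 3.79, adjusted p = 6.94e-11). POSTN, a matrix protein of mesenchyme, went from 18 counts in all of Day 10 to 896 on Day 12 (ratio 49.4, 95% exact counting interval 31.1 to 83.7). Of 14 listed early vascular and blood genes, 6 had values, of which 3 were higher, 0 lower and 3 did not pass (median 0.97). Among the higher genes was GATA1, the erythroid factor, with 3 against 288 counts, and KIT, a receptor of blood and germ cell precursors, had a log2 fold change of -1.22 that did not pass (adjusted p = 0.00366). POSTN, GATA1 and LMO2, the last also among the 3 higher vascular and blood genes, reached 0.5 CPM in Day 12 embryos alone. Their calls were thus fixed by the filter as that of T was. Of 12 genes listed for epithelial-mesenchymal transition, a list that mixes epithelial and mesenchymal genes, 7 had values. Of these 7 genes, 4 were higher, 0 lower and 3 did not pass (median 1.17). MMP2, a matrix metalloprotease, was at 2.65 (adjusted p = 1.35e-09). The 3 that did not pass were epithelial genes. E-cadherin (CDH1), the target of SNAI1, had a log2 fold change of 0.28 (adjusted p = 0.132), EPCAM one of 0.02 and CRB3 one of -0.0055.

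Values were there for 7 of 12 listed node, anterior and endoderm genes, 10 of 12 hypoblast markers and 12 of 13 trophectoderm markers. Of the 7 node, anterior and endoderm genes, 4 were higher and 1 (OTX2) lower (median 1.29). FOXA1, a forkhead factor of endoderm, rose by 2.99 on the log2 scale (adjusted p = 1.47e-11). Hypoblast markers, which share SOX17 and FOXA2 with that list and GATA4 and GATA6 with the mesoderm list, were higher in 6 of 10 and lower in 0 (median 1.42), with GATA4 at 1.72. Of those called higher, SERPINA1 reached 0.5 CPM in Day 12 embryos alone, so its call was fixed by the filter too. Trophectoderm markers were higher in 2 of 12 and lower in 5 (median -0.57), with HSD17B1, an estrogen-forming enzyme, at -3.98 and KRT18, an epithelial keratin, at -2.21. Since the RNA came from whole embryos, the mesoderm genes that were higher on Day 12 cannot be assigned to a tissue from these data.

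**Figure D3:**
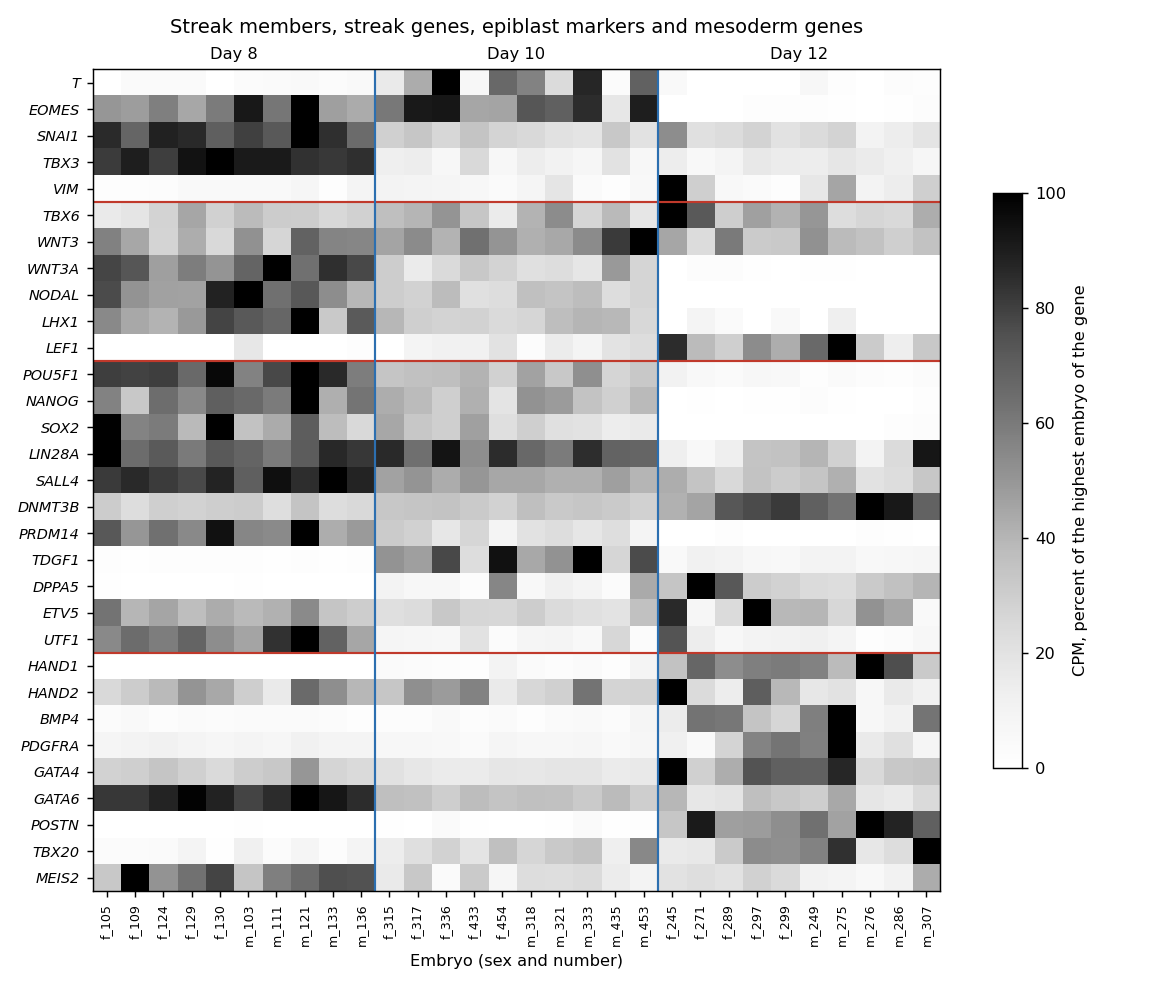
CPM of each gene as a percentage of its highest embryo (grey scale, 0 white to 100 black) in the 30 embryos (horizontal axis, f female and m male), from top to bottom for T, EOMES, SNAI1, TBX3 and VIM, other streak genes, epiblast markers and extraembryonic and lateral mesoderm genes. T is dark in Day 10 embryos such as d10_f_336 and d10_m_333 only, EOMES, NODAL, SOX2 and PRDM14 are white in all 10 Day 12 embryos, and HAND1 and POSTN are dark on Day 12.

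Whether the genes varied together was asked within each day over its 10 embryos, on log2 CPM with a prior count of 2, for the 10 pairs of the 5 genes. On Day 10, 2 pairs passed a Benjamini-Hochberg limit of 0.05. T and TBX3 varied in opposite directions (Pearson r -0.85, permutation p = 0.00154, adjusted p = 0.0154). Their Spearman rho was -0.78 (permutation p = 0.0105, adjusted p = 0.0626), and r was -0.66 without d10_f_433 and d10_m_435, the embryos farthest from the median of T. The adjusted p of r was 0.0548 without d10_f_336 and 0.0559 without d10_f_433, and in each case 0 pairs passed. T and EOMES varied together (r 0.79, permutation p = 0.00563, adjusted p = 0.0281, rho 0.77, permutation p = 0.0125, adjusted p = 0.0626). That relation rested on the same pair of embryos, since r was 0.37 without them.

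The Day 10 table allowed MIXL1 to be added, which gave 15 pairs and was chosen after the data were seen. T and MIXL1 had the largest absolute r of the 15 pairs (r 0.93, permutation p = 0.00018, adjusted p = 0.0027, rho 0.89, permutation p = 0.00117, adjusted p = 0.0175). Without d10_f_433 and d10_m_435 r was 0.84, and with the mean of each sex removed it was 0.93. Of the 11674 other genes of that table, 6 including MIXL1 had an r with T as high as this, where the median absolute r with T was 0.466. TBX3 and MIXL1 varied in opposite directions (r -0.87, permutation p = 0.00139, adjusted p = 0.00745, rho -0.79, permutation p = 0.0085, adjusted p = 0.0319), with r -0.80 without d10_f_433 and d10_f_454. The median absolute r of other genes with TBX3 was 0.563. Of these genes, 10.5% had an absolute r with TBX3 as large as that of MIXL1, and 12.4% as large as that of T. Seen from MIXL1 and from T, 3.54% and 1.83% had one as large as that of TBX3. The relations of TBX3 were therefore not particular to these genes. EOMES and MIXL1 gave r 0.67 (permutation p = 0.0232, adjusted p = 0.0625, rho 0.67, permutation p = 0.0387, adjusted p = 0.0831) and 0.21 without d10_f_433 and d10_m_435.

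**Figure D4:**
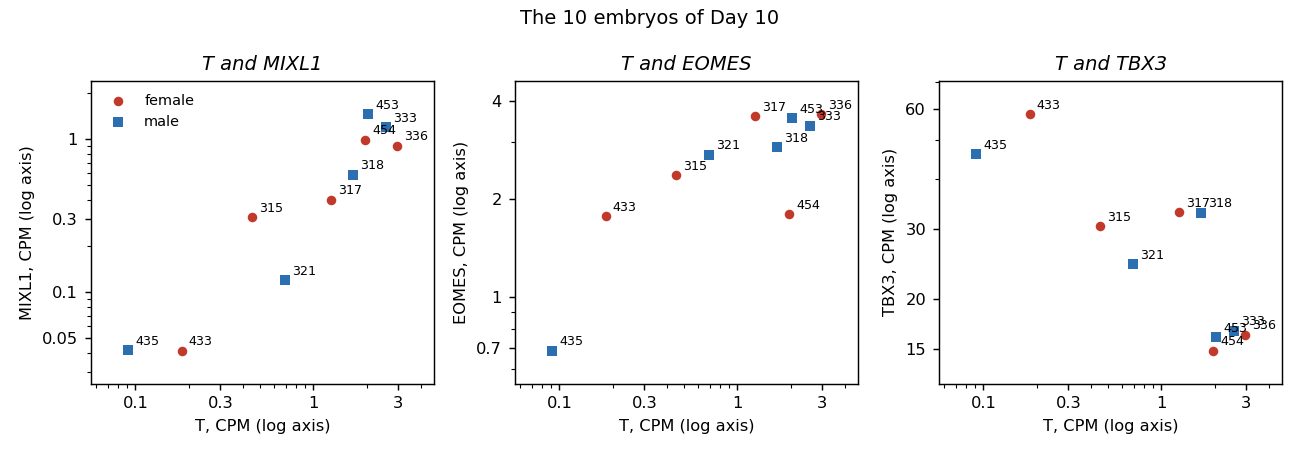
Level of MIXL1, EOMES and TBX3 against T in the 10 Day 10 embryos (CPM, both axes logarithmic), with the number of each embryo, circles for females and squares for males. MIXL1 follows T (r 0.93), EOMES less so (r 0.79, and 0.37 without d10_f_433 and d10_m_435), and TBX3 takes the opposite course (r -0.85).

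The order of the Day 10 embryos was thus similar for T and MIXL1. The embryos d10_f_336, d10_m_333, d10_m_453 and d10_f_454 had T at 1.95 CPM or more and MIXL1 at 0.899 CPM or more, together with TBX3 at 16.6 CPM or less. d10_f_433 and d10_m_435 had the lowest T and MIXL1 and the highest TBX3, 58.1 and 46.1 CPM. The embryo numbers are not said to mark a gilt, and whether litter carries the relation was not tested. Both sexes occurred at either end. On Day 10 the log2 total count of the library had an r of 0.49 with T, -0.64 with TBX3 and -0.83 with SNAI1, and its part in these relations was not tested.

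On Day 10, SNAI1 and TBX3 gave r 0.72 (permutation p = 0.0231, adjusted p = 0.0770, rho 0.67, permutation p = 0.0386, adjusted p = 0.0969), short of the limit. With the mean of each sex removed, and counts scaled within Day 10, their r was 0.86 (permutation p within sex = 0.00029, not adjusted). The relation of SNAI1 and TBX3 thus depended on how sex was handled. VIM passed the limit with none of the other genes on any day. On Day 8, 0 of 10 pairs passed, with the smallest unadjusted p of a Pearson r for SNAI1 and TBX3 (r -0.47, permutation p = 0.171, rho -0.42, permutation p = 0.233). On Day 12, 0 of 10 passed, and T and EOMES were at or near the floor in these embryos. T and VIM gave r 0.60 there (permutation p = 0.0691, adjusted p = 0.691, rho 0.63, permutation p = 0.0541, adjusted p = 0.541), with T at 0 to 4 counts. The smallest p among SNAI1, TBX3 and VIM on Day 12 was that of SNAI1 and VIM (r 0.45, permutation p = 0.190, adjusted p = 0.693, rho 0.38, permutation p = 0.281), and r was 0.01 without d12_f_245 and d12_m_276. With 10 embryos a day, weak relations cannot be detected.

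Among Day 10 embryos T had a wide spread. Its SD of 1.42 on the log2 scale was exceeded by 1.62% of 11434 genes with a mean of at least 1 CPM, whereas EOMES had 0.70, VIM 0.83 and SNAI1 0.30. As a description over 10 embryos, without a test, r with T on Day 10 was 0.88 for TDGF1, the NODAL co-receptor, 0.81 for FGF17, 0.63 for NODAL and -0.71 for WNT3A. It was 0.71 for HAND1, 0.83 for the hypoblast marker CTSV, -0.83 for GATA6, -0.85 for the epithelial adhesion molecule EPCAM and -0.88 for the pluripotency gene UTF1. These genes were singled out after their values were seen. The genes most alike and most opposed to T there were MLLT10 (0.95), CDK17 (0.94) and STARD3 (-0.97), beside the uncharacterized LOC100624113 (0.96), all with narrow ranges, as in MLLT10 from 30.8 to 42.8 CPM.

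On Day 12 the genes most like the 3 measurable members were named in the same way over 10 embryos. PACSIN3 (r 0.98), CRYM (0.97) and C1QL4 (0.97) were most like SNAI1, but without d12_f_245 CARD10, GTF2IRD1 and TNXB took their place (0.96 each). CNNM2 (0.98), KLB (0.98), the co-receptor of FGF19 and FGF21, and SESN1 (0.97) were most like TBX3, and KLB and CNNM2 led also without d12_f_245 (0.99 and 0.98). LHFPL3 (0.95), S100A9 (0.93), a calcium-binding protein of myeloid and epithelial cells, and MCCD1 (0.92) were most like VIM, and LHFPL3 and S100A9 were among the closest 3 also without d12_f_245 (0.94 and 0.92).

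The level of VIM on Day 12 was set beside the marker lists, since blood and stromal cells of the mother make VIM too. The r of log2 VIM with the log2 summed CPM of a list lay between -0.57 for genes of epithelial-mesenchymal transition and 0.49 for streak genes, and without d12_f_245 these values were -0.40 and 0.19. The transition sum adds epithelial and mesenchymal genes, and genes with high CPM weigh most in it. On Day 12 its largest mean was that of FN1, 6120 CPM, against 656 CPM for CDH1. Its r therefore does not show whether VIM varied with or against the transition. For hypoblast markers r was 0.15 and turned to -0.37 without d12_f_245. For 5 maternal blood and endometrium markers, whose sum was 0.581 to 5.61 CPM on Day 8, 3.88 to 12.0 CPM on Day 10 and 4.14 to 28.9 CPM on Day 12, it was 0.16 (0.23 without d12_f_245). These 5 markers were those with values among 11 listed. Between Days 10 and 12, 0 of them were called, where 23.3% of all genes were called. From Day 8 to Day 12, the comparison in which VIM was called, 3 were higher (median log2 fold change 2.02). In that comparison 22.0% of all genes were called higher. ALAS2, an enzyme of heme synthesis, was at 2.02 (adjusted p = 1.1e-05). The part of these markers in the level of VIM was not tested.

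Differences between the sexes did not pass an FDR of 0.05 for any of the genes. Of the members in the table of each day, 0 of 3 were called on Day 8 (0.658% of all genes called), 0 of 5 and MIXL1 on Day 10 (0.223%) and 0 of 3 on Day 12 (0.123%) in edgeR, and 0 also with the robust GLM and with DESeq2. At an unadjusted p under 0.05 the count was 0 as well, where 4.59%, 2.36% and 22.7% of all genes passed. T on Day 10 was at 1.24 ± 1.03 CPM in females and 1.29 ± 0.923 CPM in males (SD, n = 5 each, scaled within Day 10, log2 fold change -0.06, SE 0.77). MIXL1 was at 0.527 ± 0.404 and 0.676 ± 0.629 CPM (log2 fold change -0.37, SE 0.83), and the standard errors of T and MIXL1 leave sex differences of more than 1 on the log2 scale undecided. On Day 12 VIM was at 5.34 ± 8.04 CPM in females and 4.23 ± 2.66 CPM in males (log2 fold change 0.28, SE 0.94), and the log2 fold change was -1.19 without d12_f_245. A sex difference that changed between days was called for 0 of 5 genes, both from Day 8 to Day 10 and from Day 10 to Day 12, against 0% of all genes in each (edgeR, with 0.763% and 18.9% of all genes but 0 of these 5 at an unadjusted p under 0.05). DESeq2 called 0 of the 5 from Day 8 to Day 10 and gave no adjusted p for them from Day 10 to Day 12.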

How the data were processed

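The authors made a library from each whole embryo with a stranded mRNA kit, sequenced single-end reads, trimmed them with Trim Galore, took 3 bases off the 5′ end, aligned them to the pig genome Sscrofa11.1 and left out genes below a CPM limit. The aligner, counting tool and limit are not given in the sources used here. The deposited files hold raw counts of reads for NCBI genes, in a table of 13103 genes for all 30 embryos and in tables of 11405, 11675 and 12220 genes for Days 8, 10 and 12, and counts of shared genes were identical. All genes of each table reached 0.5 CPM in 4 embryos. Symbols and positions came from the RefSeq gene table of Sscrofa11.1.

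Comparisons between days used 1 fit with 3 day groups on the table of all embryos, and those between sexes the table of the day, by edgeR's quasi-likelihood F test with TMM factors, robust dispersion and Benjamini-Hochberg adjustment over all genes. The limits were 0.001 on the FDR and 1 on the absolute log2 fold change between days, and 0.05 on the FDR between sexes. The SE is the log2 fold change over the square root of F. Correlations used 100000 two-sided permutations, with adjustment over the pairs of a day, and counting intervals are exact binomial at 95%. The genes named are all members, from each list up to 2 called genes without overlap and with the largest change from Day 10 to Day 12, and the 3 genes most like each member at 1 CPM or more on Day 12; others are given as examples, and a gene that this rule named is not reported here. The members and the lists were chosen with earlier results of these data known. Alternatives were the robust GLM, DESeq2, RLE factors, library size alone, a filter of 10 counts in 5 embryos, sex as covariate, fits of 2 days, edgeR's glmTreat with a limit of 1, other scales for correlations and embryos left out. The added ones, chosen after the data were seen, were MIXL1 among the pairs, pairs of members above the floor only, and an FDR of 0.05 without a fold limit.

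The quasi-likelihood test was tried on simulated counts with 200 changed genes, in fits of 2 groups. It recovered 88.9% of changes of 2 and 90.1% of changes of 3 on the log2 scale for Day 12 against Day 10 (13103 genes, 0 false calls), and 85.6% and 97.3% between the sexes on Day 10 (11675 genes, 6 false calls). The fit with 3 day groups was not simulated. Changed genes were drawn at random, so recovery near the floor is not known. Tools were R 4.3.3, edgeR 4.0.16, DESeq2 1.42.0, limma 3.58.1, Python 3.11.15, scipy 1.17.1, numpy 2.4.6, matplotlib 3.10.9 and pandas 2.3.3.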

Additional observations from a re-analysis of the deposited data

Results flagged for a closer look

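Of 47 groups of 5 or 10 embryos, 6 held an embryo far from the others by Dixon's test, which chance gives in about 1 of 20 independent groups. These groups overlap, since each day was taken whole and again by sex. SNAI1 and VIM of d12_f_245 were each flagged in both ways, so the count cannot be set against that rate. EOMES in the Day 10 males was 0.684 CPM in d10_m_435, where the next lowest male had 2.74 CPM. VIM on Day 10 was 3.13 CPM in d10_m_321, with 1.70 CPM next. SNAI1 on Day 12 was 4.92 CPM in d12_f_245, with 2.57 CPM next among all embryos and 2.56 CPM among the females. VIM on Day 12 was 17.4 CPM in the same embryo, with 7.84 CPM next among all and 5.04 CPM among the females. d12_f_245 was the smallest library, with 6068212 counts.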

How the results depend on the processing

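The paper reports that embryos of both sexes were chosen from the same sow at each stage. No paired analysis of the sexes was possible, because the gilt of each embryo is not stated. The number of pairs that passed on Day 10 was 2, and it was 1 on linear CPM, 4 with MIXL1 added and between 0 and 3 when single embryos were left out. It was 0 without d10_f_336 or without d10_f_433 and 1 without d10_m_435, and the cause was not tested. With library size alone as scaling, log2 fold changes that were not called changed sign for EOMES from Day 8 to Day 10 (-0.0405), SNAI1 from Day 10 to Day 12 (0.0223), and for females against males in SNAI1 on Day 8 (0.0017) and EOMES on Day 10 (0.015). The robust GLM did so for VIM in females against males on Day 10 (0.29) and Day 12 (-1.05). With single embryos left out, the log2 fold change of females against males, none of them called, lay between -0.0043 and 0.075 for TBX3 and -0.0756 and 0.0778 for SNAI1 on Day 8, between -0.57 and 0.27 for T, -0.26 and 0.12 for EOMES, -0.21 and 0.44 for TBX3 and -0.29 and 0.56 for VIM on Day 10, and between -0.28 and 0.0503 for TBX3 and -1.19 and 0.68 for VIM on Day 12. Tested against a log2 fold change of 1, SNAI1 from Day 8 to Day 10 (adjusted p = 0.00551) and VIM from Day 8 to Day 12 (adjusted p = 0.00235) were no longer called. T and EOMES on Day 10 lost their call on linear CPM (r 0.70) and with sex means removed (adjusted p = 0.0607). SNAI1 and TBX3 on Day 10, not among the pairs that passed, had a larger r with sex means removed (0.86, permutation p = 0.00029, not adjusted). For Day 12 against Day 10, DESeq2 gave no adjusted p for the interaction of sex and day. The other calls between days stayed on their side of the threshold under the alternatives run. Depth limits T, EOMES and MIXL1, whose low embryos had 4 counts or fewer, so that their folds and the Day 12 correlations of T and EOMES rest on few reads.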
